A study of Mus musculus with 33 samples.

Results

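The 10 genes described here belong to the oligodendrocyte lineage, from its precursors to newly formed oligodendrocytes. They were followed through 33 bulk RNA-seq libraries of the mouse hypothalamus before and after ovariectomy (OVX). The members were *Pdgfra*, *Cspg4*, *Bmp4*, *Neu4*, *Gpr17*, *9630013A20Rik*, *Enpp6*, *Itpr2*, *Bcas1* and *Fyn*, which is 10 of the 41565 named entries of the deposited table. They were chosen by name, with earlier results of these libraries known. Which measured values guided the choice is not recorded, and the choice had no threshold. The values and calls below therefore describe the members. No *P* value was adjusted over the 10 genes alone. All 10 reached the level needed for testing in both regions, and each lay above 2 times the floor of the table in all 33 libraries.

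Oligodendrocytes form throughout adult life from precursor cells that divide under platelet-derived growth factor (PDGF) and carry the NG2 proteoglycan. A precursor that leaves this state passes through a short committed and newly formed stage, with its own transcripts, before it either dies or makes myelin. Transcripts that are limited to this stage are used in brain tissue as a readout of ongoing oligodendrocyte formation, whereas precursor and myelin transcripts come from lasting cell populations.

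The libraries came from adult female WT C57BL/6 mice, and posterior hypothalamus (PH) and preoptic area (POA) were dissected and sequenced separately. By the study's methods both regions were collected from the same females, so PH and POA are not independent sets of mice. No label ties a PH library to the POA library of the same mouse. The PH was represented by 4 intact libraries, 6 taken 14 days after OVX and 6 taken 4 months after OVX, and the POA by 5, 6 and 6. Intact mice were taken in diestrus without surgery by the study's methods, although the sample titles call them sham. All operated mice had both ovaries removed as adults under isoflurane, with buprenorphine and meloxicam on the day of surgery. One POA library whose group label reads only 14 was placed at 14 days by its title. Mice 4 months after OVX had also aged since surgery, so time without ovaries and age cannot be told apart. The labels do not say that each library is a separate mouse, so *P* values measure the spread between libraries. Each group holds libraries of batch 1 and batch 2, and what a batch stands for is not stated. The deposited unit is a normalized signal on a linear scale with a floor near 22.1. This floor is the mean level of 108 low genes, picked for a mean in a narrow range and an SD of log2 values under 0.03. Their level and their small spread between libraries therefore follow from the choice. The floor is not the minimum, since the lowest value was 9.94. Library sums of this signal, which are no read totals, lay between 0.887 and 1.45 times their median, and depth and counting error are unknown. The highest sum belonged to 1 PH library, replicate 5 at 14 days after OVX, which also stood apart on the first surrogate variable (SV1), at 0.785 against at most 0.194 in the other PH libraries.

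*9630013A20Rik* was the member with the largest differences, and its sequence is shown because the transcript is noncoding and lies within another gene. It is a long noncoding RNA (lncRNA) gene of differentiating oligodendrocytes (ENSMUSG00000115529.3), on the minus strand of chromosome 14 at chr14:84696079-84713864 (GRCm39, GENCODE M39). The annotation gives it 6 transcripts with 3062 exonic bases. It lies entirely inside *Pcdh17*, a protocadherin gene on the plus strand at chr14:84680965-84776442, and the exons of the pair share 0 bases. One exon is part of all 6 transcripts, at chr14:84708108-84708171 on the minus strand. The study names an earlier GENCODE release, and which isoforms and stretches fed the measured value was not checked.
9630013A20Rik shared exon: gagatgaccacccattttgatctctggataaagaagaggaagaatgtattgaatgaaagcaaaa

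The stretch from 250 bases before to 50 bases after the RefSeq start of *9630013A20Rik* was searched for short motifs of factors that act in the oligodendrocyte lineage, on both strands. The sequence is from the RefSeq table (GRCm38.p6) and occurs once in GRCm39, at chr14:84713815-84714114 on the minus strand. Capitals mark an E-box, CAGCTG, the kind of site bound by basic helix-loop-helix factors such as OLIG2, which begins at position −73 from the start, and ACAAT, a core bound by SOX factors, which begins at position −59.
9630013A20Rik promoter: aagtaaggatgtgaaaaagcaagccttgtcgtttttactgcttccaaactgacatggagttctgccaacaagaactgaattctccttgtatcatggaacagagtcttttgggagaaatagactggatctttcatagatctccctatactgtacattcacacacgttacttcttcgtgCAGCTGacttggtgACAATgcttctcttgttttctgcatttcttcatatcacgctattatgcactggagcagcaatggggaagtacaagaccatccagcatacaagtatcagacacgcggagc

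These matches describe letters, not sites. Of 32851 promoters of the same length, 16.3% held CAGCTG and 31% held ACAAT. Promoters were found for 8 of the 10 members. Among these, CAGCTG occurred in *9630013A20Rik* alone, and ACAAT also occurred in *Enpp6*, *Neu4* and *Cspg4*. The other E-box searched, CAGATG (17.2% of all promoters), was found in *Pdgfra*, and the SOX motif ACAAAG (18.7%) was found in none of the 8.

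*Gpr17*, which encodes a G protein-coupled receptor switched on in committed precursors and off again before myelination, has the same arrangement. It lies on the minus strand of chromosome 18 inside *Lims2*, whose product is an adaptor protein of integrin adhesions. The exons of the pair share 320 bases, which is 5.93% of the exonic bases of *Gpr17*. The libraries were made with a stranded kit, but the strand setting used for counting is not given in the sources used here. Signal from such a partner could enter a member's value if strand was not used. *Pcdh17* differed from intact by −0.06 (SE 0.08) in the PH and −0.10 (SE 0.10) in the POA 4 months after OVX, on the log2 scale. *Lims2* differed by −0.28 (SE 0.24) and 0.06 (SE 0.19). Neither partner was called in any comparison. Of the other members, *Bcas1*, *Bmp4*, *Enpp6*, *Fyn*, *Itpr2* and *Pdgfra* also overlap annotated genes, and *Neu4* and *Cspg4* overlap none.

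**Figure D1:**
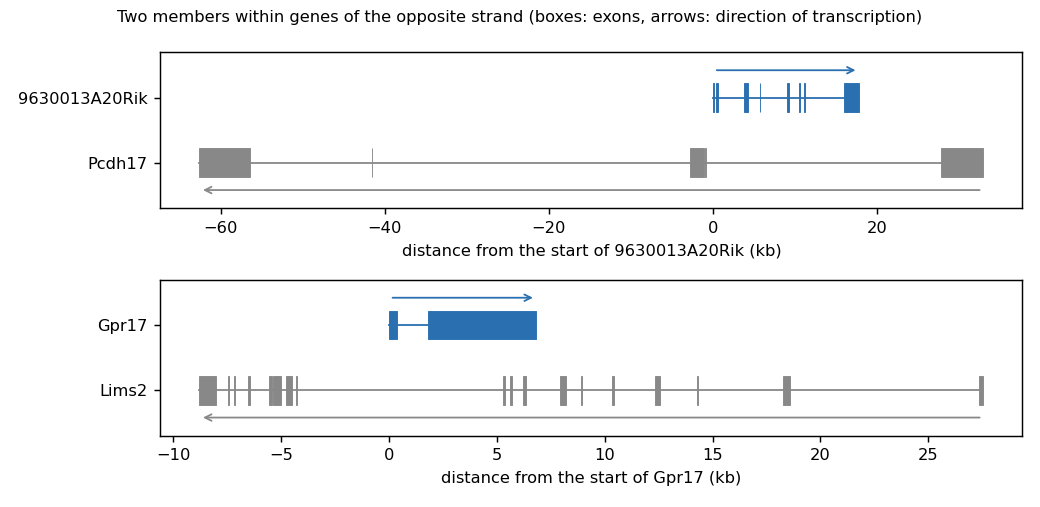
Maps of *9630013A20Rik* (top) and *Gpr17* (bottom) with the gene of the opposite strand that contains each, as distance in kb from the member's start along its direction of transcription, with boxes for exons and arrows for the direction of transcription. The exons of *9630013A20Rik* fall in an intron of *Pcdh17* with 0 shared bases, whereas 320 exonic bases of *Gpr17* overlap exons of *Lims2*.

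*9630013A20Rik* fell 4 months after OVX in both regions. In the PH, the 4 libraries of intact mice had normalized signals of 265, 227, 205 and 210. The 6 libraries 14 days after OVX had 221, 224, 154, 147, 312 and 258. The 6 libraries 4 months after OVX had 90.0, 138, 125, 79.8, 78.7 and 66.3. All 6 late libraries lay below every intact library and below every 14-day library, whereas the 14-day libraries spread to both sides of the intact ones. Group means were 227 ± 26.9 (SD, n = 4), 219 ± 62.7 (n = 6) and 96.2 ± 28.4 (n = 6). In limma on all tested genes of the PH, *9630013A20Rik* was lower 4 months after OVX than in intact mice by a log2 difference of −1.24 (SE 0.17, adjusted *P* = 0.00418), a ratio of 0.425. Of 21998 genes tested in this comparison, 7 were called (0.0318%), and *9630013A20Rik* was the 1 called gene that was lower (0.00455%). Groups that did not overlap, with all 4-month libraries below all intact ones, were found for 0.395% of the genes.

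In the POA, intact mice gave signals of 198, 226, 233, 165 and 221. The 14-day libraries gave 192, 239, 241, 151, 150 and 123, and the 4-month libraries gave 105, 158, 125, 83.2, 66.2 and 78.3. Again all 6 late libraries lay below every intact library, and 4 of the 6 lay below every 14-day library. Means were 209 ± 27.4 (n = 5), 183 ± 49.6 (n = 6) and 103 ± 34.3 (n = 6). The log2 difference from intact to 4 months was −1.18 (SE 0.14, limma adjusted *P* = 0.00192), a ratio of 0.442, and *9630013A20Rik* had the smallest *P* of the 21366 genes tested. Here 20 genes were called (0.0936%), and 3 of them were lower (0.014%), *9630013A20Rik*, *Ncan* and *Spred3*. Groups that did not overlap in this direction were found for 0.253% of the genes.

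At 14 days, *9630013A20Rik* was not called in either region, with log2 differences of −0.25 (SE 0.18, limma adjusted *P* = 1.0) in the PH and −0.31 (SE 0.14, limma adjusted *P* = 0.806) in the POA. No gene was called at 14 days in the PH (0%), where 668 genes had an unadjusted *P* under 0.05 (3.04%), and 1 was called in the POA (0.00468%). By its DESeq2 fit the study reported more protein-coding genes different from intact than genes of any type were called here, at both times and in both regions. Its counts leave out noncoding genes such as *9630013A20Rik*. A missing call here therefore belongs to this fit. The later interval, from 14 days to 4 months, gave −0.99 (SE 0.16, limma adjusted *P* = 0.0659) in the PH and −0.86 (SE 0.14, limma adjusted *P* = 0.0157) in the POA. Among all genes 2 were called in this interval in the PH (0.00909%), none of them lower (0%), and 6 in the POA (0.0281%), 1 of them lower (0.00468%). Late libraries that all lay below the 14-day ones, as for *9630013A20Rik* in the PH, were found for 0.109% of the genes. Leaving out single libraries moved the adjusted *P* of the later interval (limma) from 0.0109 to 0.207 in the PH and from 0.00472 to 0.0837 in the POA, so on both sides of the threshold. Without PH replicate 5 at 14 days, the PH value was −0.98 (limma adjusted *P* = 0.073). Comparisons within a region share libraries, so they are not independent of each other. The order of the group means was intact, 14 days and 4 months in both regions. The 14-day step, however, differed in sign between the batches. It was −0.32 in batch 1 and 0.13 in batch 2 of the PH, and 0.08 and −0.53 in the POA. Intact and 14-day libraries overlapped in each, and their difference had an unadjusted *P* (limma) of 0.183 (PH) and 0.0422 (POA). The difference between the regions, tested as an interaction over 33 libraries, was 0.03 (SE 0.23) at 14 days and −0.07 (SE 0.23) at 4 months. The latter leaves room for a difference of −0.54 to 0.40 (2 SE to each side). The interaction did not pair libraries of the regions by mouse.

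**Figure D2:**
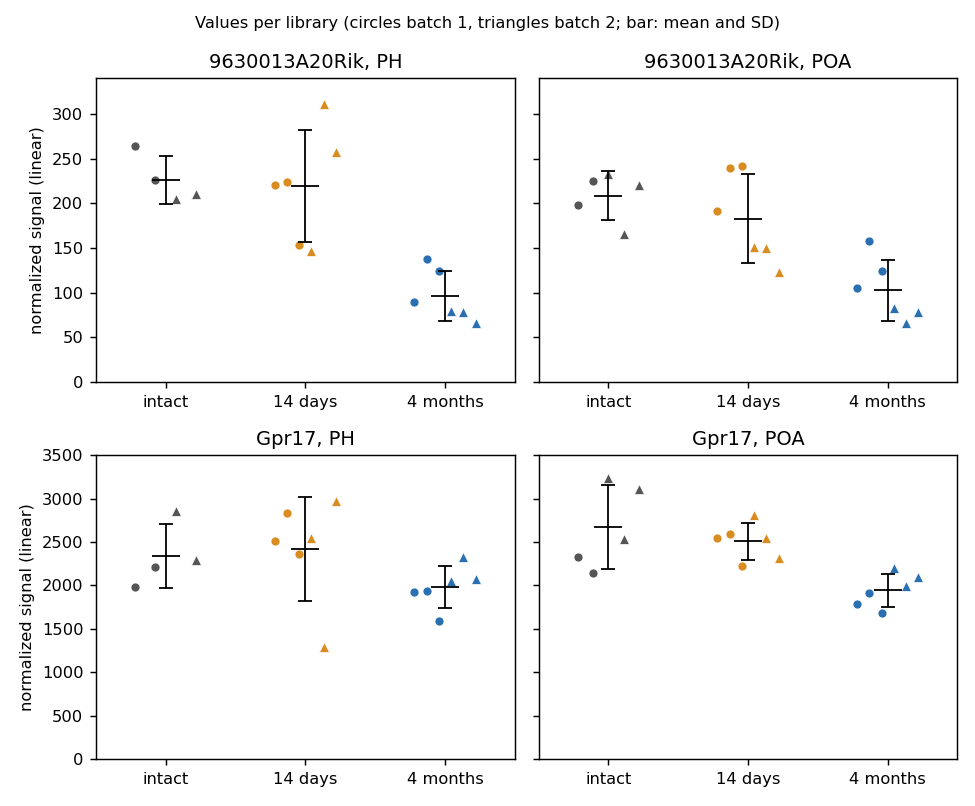
Normalized signal (linear axis from 0) of *9630013A20Rik* (top) and *Gpr17* (bottom) in each library of the PH (left) and POA (right), with circles for batch 1, triangles for batch 2, and bars for the mean and SD of the group. For *9630013A20Rik* the 6 libraries 4 months after OVX lie below all intact libraries in both regions; for *Gpr17* the 6 POA libraries at 4 months lie below all 14-day ones, the other groups overlap, and 1 PH library at 14 days lies at 1287.

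Both batches gave the same direction for *9630013A20Rik* at 4 months against intact. Within batch 1, the libraries at 4 months differed from intact by −1.08 in the PH and −0.73 in the POA on the log2 scale, and within batch 2 by −1.47 and −1.43. In the POA, batch 2 was lower than batch 1 in 3 of 3 groups, by 0.05 to 0.76. Neither batch analyzed alone gave a call. In the PH the call was also lost with batch in place of SV1 (limma adjusted *P* = 0.0742) and without a covariate (limma adjusted *P* = 0.0808), and in the POA without a covariate (limma adjusted *P* = 0.12). It was kept in both regions whichever single library was left out, with log2 differences of −1.34 to −1.19 in the PH and −1.29 to −1.08 in the POA.

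*Gpr17* showed lower values 4 months after OVX, but the differences were smaller than for *9630013A20Rik* and were not called. In the POA, intact mice gave 2329, 2149, 3242, 2531 and 3115. The 14-day libraries gave 2551, 2590, 2220, 2813, 2552 and 2320, and the 4-month libraries 1784, 1918, 1686, 2196, 1992 and 2096. All 6 late libraries lay below every 14-day library, and 5 of 6 lay below every intact library. The log2 difference from intact to 4 months was −0.41 (SE 0.08, limma adjusted *P* = 0.0727), with −0.32 within batch 1 and −0.49 within batch 2. From 14 days to 4 months it was −0.36 (SE 0.08, limma adjusted *P* = 0.291), in a comparison in which 0.0421% of the genes had late libraries all below the 14-day ones. *Gpr17* at 4 months in the POA was called when batch replaced SV1 (limma adjusted *P* = 0.0394) or was added to it (limma adjusted *P* = 0.0214). It was not called without a covariate (limma adjusted *P* = 0.349) or without the filter on low values (limma adjusted *P* = 0.127). The 2 groups compared alone (limma adjusted *P* = 0.106), batch 1 alone (0.544) and batch 2 alone (0.788) gave no call either.

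In the PH, *Gpr17* had 1986, 2208, 2854 and 2293 in intact mice, 2518, 2837, 2363, 2549, 1287 and 2972 at 14 days, and 1920, 1931, 1589, 2047, 2333 and 2069 at 4 months. The value of 1287 came from replicate 5 at 14 days, the library that stood apart, and the other 14-day libraries lay above every late one. Differences from intact were 0.18 (SE 0.10) at 14 days, 0.20 without that library, and −0.28 (SE 0.09, limma adjusted *P* = 0.635) at 4 months. From 14 days to 4 months, *Gpr17* differed by −0.46 (SE 0.09, limma adjusted *P* = 0.213) with SV1 in the model. Without replicate 5 this value was −0.47 (limma adjusted *P* = 0.073), whereas it was −0.25 with batch in place of SV1 and 0.01 within batch 2, which holds that library. The change of *Gpr17* did not differ detectably between the regions, with an interaction of 0.11 (SE 0.14) at 4 months.

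**Figure D3:**
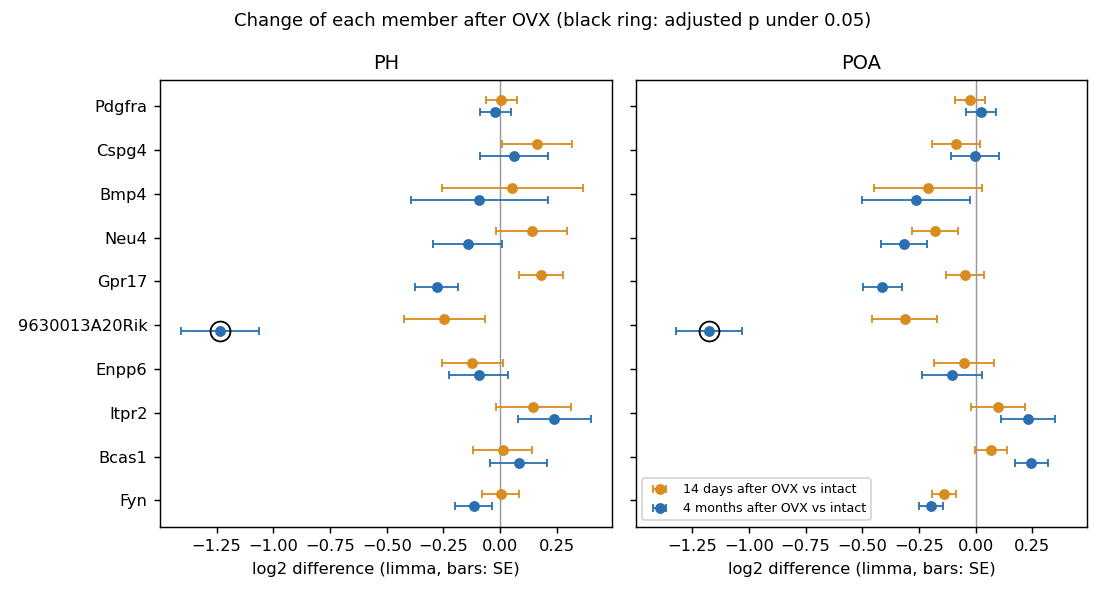
Log2 difference from intact of each member in the PH (left) and POA (right), 14 days (orange) and 4 months (blue) after OVX, with bars of 1 SE from limma and a ring at an adjusted *P* under 0.05. *9630013A20Rik* at 4 months carries the ring, at −1.24 (PH) and −1.18 (POA), and the other members lie between −0.41 and 0.25.

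Of the precursor genes, none was called in any comparison, where at most 0.0936% of all genes tested were. *Pdgfra*, the receptor through which PDGF-AA drives precursor division, ranged from 2876 to 3511 in intact PH, from 2857 to 3362 at 14 days and from 2942 to 3458 at 4 months. In the POA these ranges were 2983 to 3391, 2655 to 3627 and 3002 to 3695. The groups overlapped throughout, and the log2 differences from intact lay between −0.02 and 0.02, with SEs of 0.07. In the POA, 2 SE to each side of the 4-month difference covered −0.11 to 0.15. *Pdgfra* is also made by fibroblasts of the meninges and vessels.

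*Cspg4*, which encodes the NG2 proteoglycan of precursors and pericytes, differed from intact by 0.16 (SE 0.15) at 14 days and 0.06 (SE 0.15) at 4 months in the PH. In the POA these differences were −0.09 (SE 0.11) and −0.00 (SE 0.11). Its libraries ran from 486 to 1018 in the PH and from 467 to 863 in the POA. Part of this range lay between batches, since batch 2 exceeded batch 1 by 0.39 (PH) and 0.49 (POA) on the log2 scale, in 3 of 3 groups of each region.

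*Bmp4*, a secreted ligand of the BMP family that holds back oligodendrocyte differentiation and is made by committed precursors, had the widest spread of the members, with a median within-group SD of 0.47 on the log2 scale. In the POA, *Bmp4* signals were 214, 109, 250, 135 and 127 in intact mice and 158, 165, 141, 91.6, 118 and 150 at 4 months. Its differences from intact were −0.26 (SE 0.24) there and −0.09 (SE 0.30) in the PH. At this spread, *Bmp4* changes of the size seen for *Gpr17* were not detectable.

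*Neu4*, which encodes a sialidase and is on in the committed stage, had lower values at 4 months in the POA and was not called. Its signals there were 455, 489, 603, 564 and 688 in intact mice and 386, 308, 386, 493, 555 and 438 at 4 months, with 4 of 6 late libraries below every intact library. The log2 difference was −0.32 (SE 0.10, limma adjusted *P* = 0.342), with −0.40 in batch 1 and −0.32 in batch 2. In the PH, *Neu4* differed by −0.14 (SE 0.15). Like *Cspg4*, *Neu4* was higher in batch 2 in 3 of 3 groups of each region, by 0.46 in the PH and 0.45 in the POA. *Enpp6*, a choline-specific phosphodiesterase used to mark oligodendrocytes as they form, differed from intact by −0.12 to −0.05 (SE 0.13) over both times and regions. Its signals ranged from 402 to 865 in the PH and from 446 to 787 in the POA, and the groups overlapped.

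The remaining members gave values in both directions. *Itpr2*, an inositol trisphosphate receptor that releases calcium from the endoplasmic reticulum and is also made by astrocytes, differed from intact at 4 months by 0.24 (SE 0.16) in the PH and 0.23 (SE 0.12, limma adjusted *P* = 0.632) in the POA. Its highest signal, 1879, was in a POA library 4 months after OVX, and 2 of 6 late libraries exceeded every intact library in each region.

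*Bcas1*, a gene of early myelinating oligodendrocytes that remains on in myelin, had signals of 11849, 11122, 10977, 10538 and 13189 in intact POA. At 4 months these were 14795, 15584, 15643, 13614, 11904 and 12840, so 4 of 6 late libraries lay above every intact library. The log2 difference was 0.25 (SE 0.07, limma adjusted *P* = 0.289), with 0.42 in batch 1 and 0.15 in batch 2. In the PH it was 0.08 (SE 0.13).

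*Fyn*, a Src family kinase that acts in the outgrowth of oligodendrocyte processes and is also strong in neurons, was, beside *9630013A20Rik*, the member whose intact and 4-month groups did not overlap in the POA (0.253% of all genes in this direction). Intact mice gave 5498, 5702, 6073, 5538 and 5902, and the 4-month libraries gave 5362, 4866, 4695, 5057, 5163 and 5057. Every late library lay below every intact one, by a small step, with a log2 difference of −0.20 (SE 0.05, limma adjusted *P* = 0.22). At 14 days in the POA, *Fyn* differed by −0.14 (SE 0.05, limma adjusted *P* = 0.799). In the PH, it differed by −0.12 (SE 0.08) at 4 months, and replicate 5 at 14 days gave 7612 against 5063 to 5600 in the other 14-day libraries. The 14-day difference of *Fyn* in the PH was 0.00 (SE 0.08), and −0.02 without that library.

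**Figure D4:**
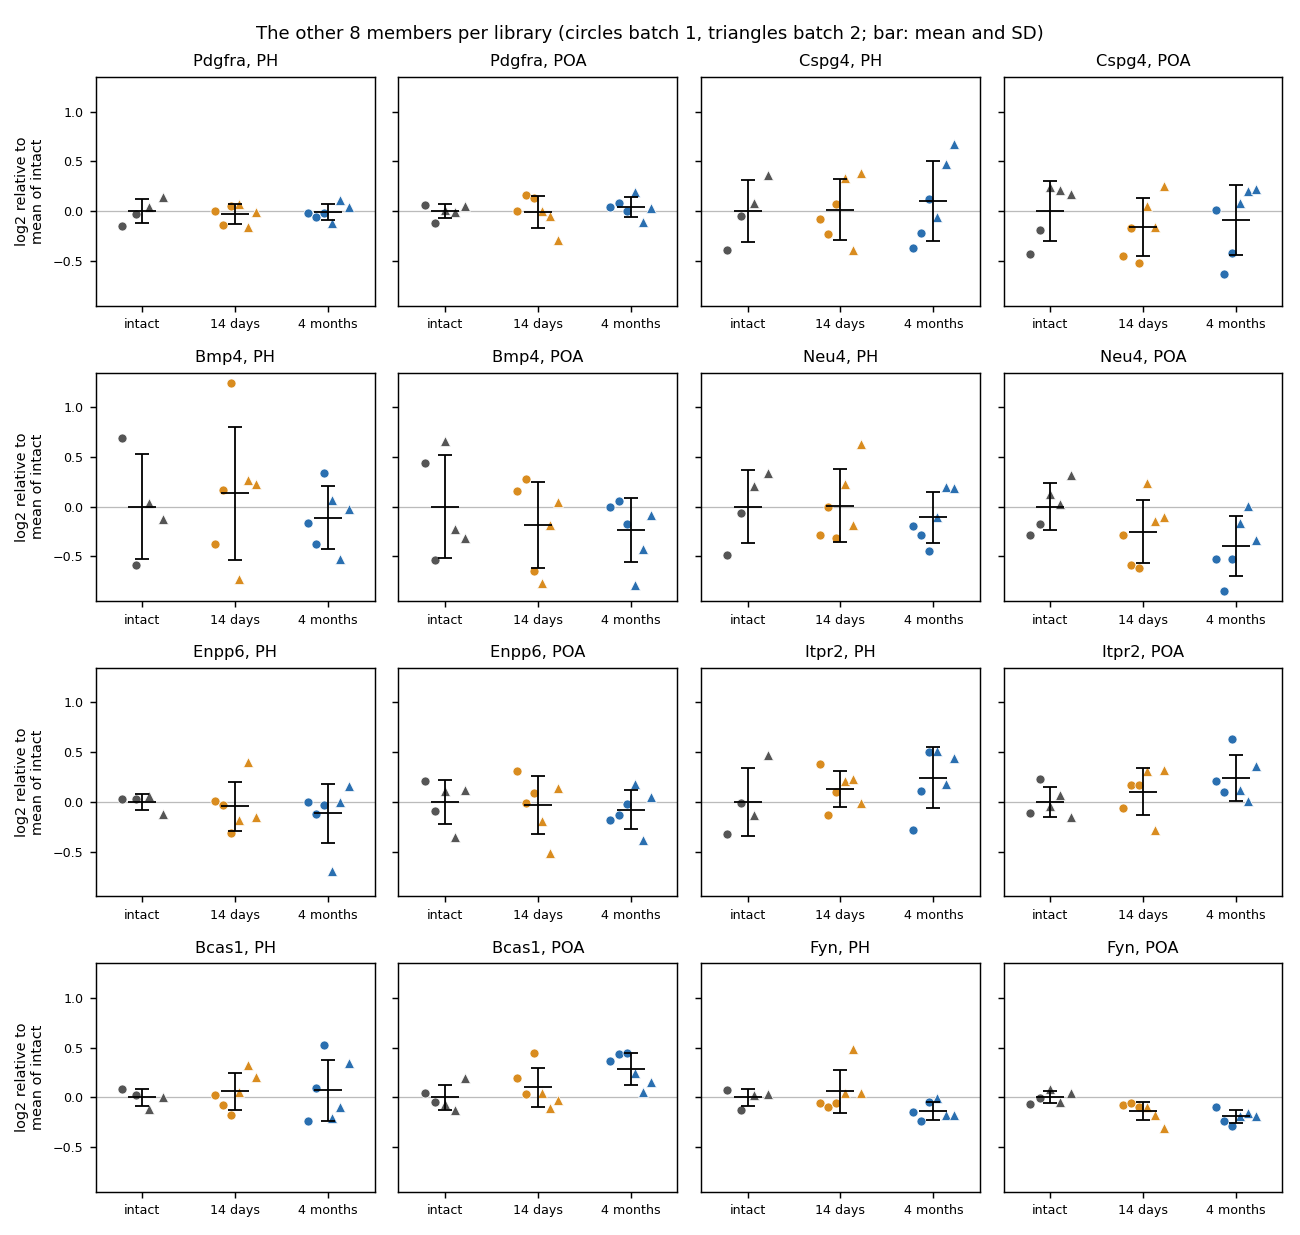
Log2 signal of the other 8 members in each library, relative to the mean of the intact libraries of the region, with circles for batch 1, triangles for batch 2 and bars for the mean and SD of the group. *Pdgfra* stays near 0 in all groups, *Cspg4* and *Neu4* have higher means in batch 2 with overlapping values, and the 4-month libraries of *Fyn* lie below the intact ones in the POA.

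Across the 10 members, *9630013A20Rik* was the 1 called at 4 months against intact in each region and the 1 called from 14 days to 4 months in the POA. By limma, 0 were called at 14 days. At an unadjusted *P* under 0.05, 2 members differed from intact at 4 months in the PH, where 6.07% of all genes did, and 5 in the POA, where 8.5% did. From 14 days to 4 months, 2 members did so in the PH (4.09% of all genes) and 3 in the POA (5.11%). At 14 days against intact, 0 members did so in the PH and 2, *9630013A20Rik* and *Fyn*, in the POA (6.14% of all genes). The 5 at 4 months in the POA were *9630013A20Rik*, *Gpr17*, *Neu4* and *Fyn* with lower values and *Bcas1* with higher values. The median log2 difference of the members at 4 months was −0.09 in the PH and −0.15 in the POA, against −0.01 over all genes tested in either region. At 14 days it was 0.03 (PH) and −0.07 (POA). In both interaction tests no member was called, where 1 (0.00435%) and 2 (0.00869%) of 23014 genes were, and 0 members had an unadjusted *P* under 0.05, as 3.07% and 3.69% of the genes did. In bulk tissue, fewer cells of a type and less RNA per cell cannot be told apart.

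Other genes of the lineage were read from lists by stage. All 20 other precursor genes, 18 other committed or newly formed genes and 22 mature myelin genes were above 2 times the floor in all 33 libraries, so the lineage was represented in every dissection. None of these 60 genes was called in any comparison, where at most 0.0936% of all genes tested were. The median difference of the other precursor genes, which include *Olig1*, *Olig2* and *Sox10*, was 0.08 (PH) and −0.01 (POA) at 4 months. The smallest *P* belonged to *Nkx2-2*, a transcription factor that promotes differentiation, at 0.35 (SE 0.09, limma adjusted *P* = 0.341) in the PH. In the POA, *Lhfpl3* differed by −0.12 (SE 0.05) and *Sox10* by 0.19 (SE 0.09).

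The other committed and newly formed genes had a median of −0.08 at 4 months in both regions, with 12 of 18 below 0 in each. At an unadjusted *P* under 0.05, 6 of the 18 had lower values and 0 had higher values in the POA (8.5% of all genes in either direction), and 1 had lower values in the PH (6.07%). Among the other precursor genes, 1 had higher and 1 lower values in the POA and 2 higher in the PH, and among the myelin genes 4 had higher and 2 lower values in the POA and 5 higher and 3 lower in the PH. *Cnksr3*, a scaffold protein, was lowest by *P* in both, at −0.52 (SE 0.13, limma adjusted *P* = 0.194) in the POA and −0.38 (SE 0.14, limma adjusted *P* = 0.645) in the PH. It was followed in the POA by *Rap2a*, a small GTPase, at −0.21 (SE 0.06, limma adjusted *P* = 0.289).

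The myelin genes had a median of −0.00 in both regions at 4 months, with values on both sides of 0. *Apod*, an apolipoprotein of mature oligodendrocytes, differed by 0.53 (SE 0.12) in each region (limma adjusted *P* = 0.209 in the PH and 0.146 in the POA). *Hapln2*, a link protein of nodes of Ranvier, differed by 0.37 (SE 0.09, limma adjusted *P* = 0.132) in the POA. *Cldn11*, a tight junction protein of myelin, differed by −0.25 (SE 0.08) in the PH. At 14 days the median was −0.07 in the PH and −0.10 in the POA, where *Fa2h*, which makes hydroxylated myelin lipids, differed by −0.39 (SE 0.08, limma adjusted *P* = 0.349).

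**Figure D5:**
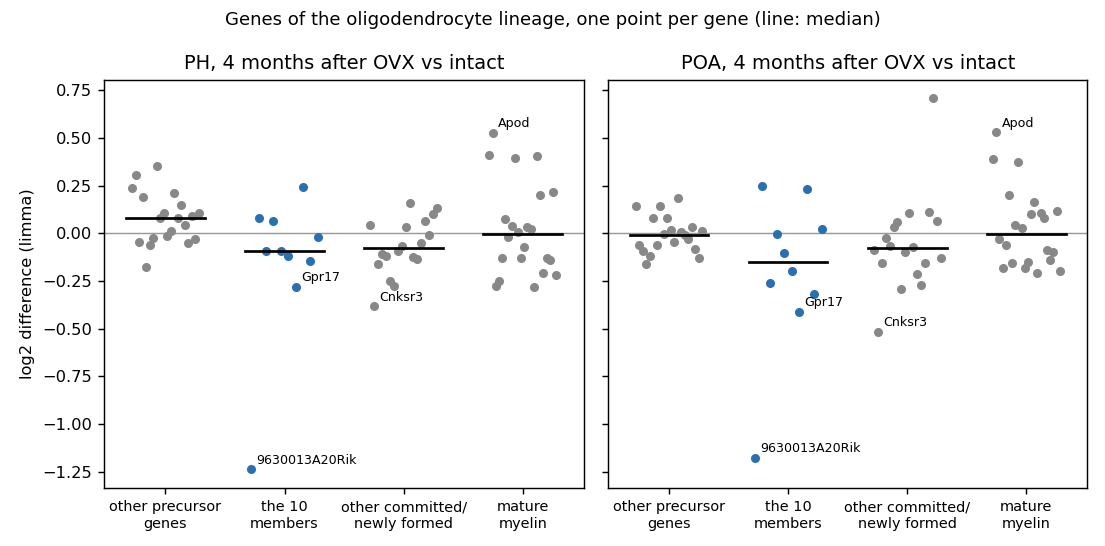
Log2 difference from intact, 4 months after OVX, of genes of the oligodendrocyte lineage in the PH (left) and POA (right), with 1 point per gene and a line at the median of each list. *9630013A20Rik* lies at −1.24 and −1.18, apart from the other genes shown, and the list medians lie between −0.15 and 0.08.

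Genes of the pathways around the members gave no call, where at most 0.0936% of all genes tested were called in a comparison. Among 22 other BMP ligands, antagonists, receptors, SMADs and targets, the median at 4 months was 0.01 in the PH and 0.02 in the POA. *Smad6*, an inhibitory SMAD, differed by 0.67 (SE 0.20, limma adjusted *P* = 0.518) and *Grem1*, an antagonist, by 0.31 (SE 0.13) in the PH. In the POA, the pseudoreceptor gene *Bambi* differed by 0.28 (SE 0.11) and the receptor gene *Bmpr1a* by −0.11 (SE 0.05). Among 4 PDGF ligands and *Pdgfrb*, *Pdgfb* had the smallest *P* in the PH, at 0.31 (SE 0.13, limma adjusted *P* = 0.772), and *Pdgfc* in the POA, at −0.15 (SE 0.09).

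Of 15 proliferation genes, 13 were above 2 times the floor in all libraries, and *Cdk1* and *Ccnb1* were not. Their median at 4 months was 0.03 in the PH and −0.12 in the POA. *Top2a* differed by −0.64 (SE 0.23, limma adjusted *P* = 0.645) and *Ccnd2* by −0.36 (SE 0.14) in the PH, and *Ccnb1* by −0.37 (SE 0.14) and *Ccnd2* by −0.38 (SE 0.16) in the POA.

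Markers of other cell types were read in the same groups. The mean log2 value of 10 microglia markers ran from 9.86 to 9.95 in intact PH and from 9.94 to 10.42 at 4 months. In the POA it ran from 9.90 to 10.12 and from 9.99 to 10.40. One of them, the complement gene *C1qa*, rose in the POA by 0.43 (SE 0.08, limma adjusted *P* = 0.0428). For 10 endothelial markers these ranges were 9.71 to 9.80 and 9.89 to 10.23 in the PH, and 9.72 to 9.87 and 9.76 to 10.14 in the POA. For 9 mural cell markers they were 9.10 to 9.24 and 8.98 to 9.66 in the PH, and 8.85 to 9.44 and 9.11 to 9.51 in the POA. For 10 neuron markers, they were 14.00 to 14.17 and 13.95 to 14.12 in the PH, and 14.08 to 14.21 and 14.00 to 14.26 in the POA. The median log2 difference at 4 months was 0.03 (PH) and 0.05 (POA) for 10 astrocyte markers, and −0.00 and 0.14 for 8 fibroblast markers. By the same measure, microglia markers gave 0.26 and 0.18, endothelial markers 0.25 and 0.15, and mural cell markers 0.23 and 0.21. Neuron markers gave −0.05 and −0.04. All these markers were above 2 times the floor in all 33 libraries, and their part in the lower *9630013A20Rik* was not tested.

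From library to library, pairs of members gave correlations of both signs. After group and batch means were removed, Pearson's r between *9630013A20Rik* and *Gpr17* was −0.36 over 16 libraries of the PH and 0.56 over 17 of the POA. *Enpp6* and *Bcas1* gave 0.48 and 0.50. *Pdgfra* and *Cspg4* gave 0.82 in the PH and −0.35 in the POA. *Gpr17* and *Neu4* gave 0.80 in the PH and 0.23 in the POA. *Gpr17* and *Fyn* gave −0.89 and 0.59. Several PH values rested in part on replicate 5 at 14 days, and over the 15 libraries without it *9630013A20Rik* and *Gpr17* gave 0.29, *Gpr17* and *Neu4* 0.63 and *Gpr17* and *Fyn* −0.58. Genes of one library share its depth and composition, so these values are descriptions.

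Over all 21234 genes tested in both regions, the genes most like *9630013A20Rik* by the mean of the centred r in the PH and POA were *Zfp868* (0.72 and 0.83), *Ccdc126* (0.88 and 0.66), *Ankrd13c* (0.70 and 0.84), *Crcp* (0.75 and 0.77) and *Rnf7* (0.71 and 0.77). For *Gpr17* they were *Cyp2u1*, *Pcdhga6*, *Tmem101*, *Mcm2* and *Ahcy*, with a mean r of 0.82 to 0.86. For *Pdgfra* they were *Gpr6*, *Pea15a*, *Angptl6*, *Rpl3* and *Eef1a1*, with a mean r of 0.76 to 0.85. No other member was among them. Without replicate 5 at 14 days, the PH values of the 5 genes ran from 0.59 to 0.87 for *9630013A20Rik* (0.70 to 0.88 with it), from 0.27 to 0.70 for *Gpr17* (0.87 to 0.93 with it) and from 0.38 to 0.84 for *Pdgfra* (0.61 to 0.89 with it).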

How the data were processed

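Bulk RNA-seq of dissected PH and POA was analyzed from 1 deposited table with 33 libraries, grouped by region and time from the sample titles. The authors pseudoaligned stranded mRNA reads with kallisto (build mm39, GENCODE annotation), summarized them with tximport and used DESeq2 with SV1 from smartSVA. The deposited values are a normalized signal on a linear scale, not counts, and how the authors made them is not given in the sources used here. Genes without expression were taken to lie at a floor near 22.1. The 108 genes picked for it follow 1 line across libraries, named the subtracted component below. Whether the authors subtracted it is not given. It was not removed from the values here and entered an alternative fit as a covariate. This component separates PH from POA, and levels are not compared between regions. If the floor is part of each value, differences of weak genes are understated. Depth is unknown.

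The table has 42824 entries, of which 1259 name no gene and were dropped. The test took in genes with 2 times the floor or more in 4 libraries of the PH (21998 genes) or 5 of the POA (21366 genes). Log2 values, with no pseudocount, were fitted per region with limma 3.58.1 (trend, robust; R 4.3.3), with terms for the 3 groups and for SV1, estimated by 5 rounds of iteratively reweighted surrogate variable analysis in base R. Adjustment followed Benjamini and Hochberg across the whole set of tested genes, and called means an adjusted *P* under 0.05. The regions were compared as an interaction (PH change less POA change) over all 33 libraries. A test on counts had been planned only for a table of counts. The fit was tested on simulated data. No pair of libraries in a group looked like copies of 1 library, since the smallest SD of log2 differences between 2 libraries was 0.29.

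The members and lists were chosen with earlier results of these data known. Genes named beside the members are called genes of the lists, up to 2 genes per list with the smallest *P* in a comparison, and the 5 genes most correlated with *9630013A20Rik*, *Gpr17* and *Pdgfra*. *Ncan* and *Spred3* were named after their values were seen. Positions are from GENCODE M39 (GRCm39), in which all 10 members were found by symbol. Promoters are from a RefSeq table (GRCm38.p6). Python 3.11.15, numpy 2.4.6, pandas 2.3.3 and matplotlib 3.10.9 were used. The alternatives were batch in place of or beside SV1, no covariate, SV1 over all libraries, SV1 with the subtracted component, a replicate block, single batches, the 2 groups compared alone, no filter, median centring, a floor-subtracted scale with a pseudocount of 10, a threshold of 0.1, and each library left out in turn.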

Additional observations from a re-analysis of the deposited data

Results flagged for a closer look

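Of 60 combinations of member and group 3 had 1 library far from the rest, by the gap to its nearest neighbor relative to the range of the group. Chance flags about 1 in 20 groups. *Gpr17* was 1287 in PH replicate 5 at 14 days after OVX, against 2363 to 2972 in the other 5 libraries of the group. *Fyn* was 7612 in the same library, against 5063 to 5600. This library also had the highest sum of deposited values (1.45 times the median sum) and the highest SV1 (0.785). *Enpp6* was 402 in PH replicate 4 at 4 months after OVX, against 599 to 727.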

How the results depend on the processing

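The number of members called stayed at 0 under every alternative for 14 days against intact in both regions and for both interactions. At 4 months against intact in the PH (1 member called), it was 0 with batch in place of SV1, without a covariate, and in batch 1 or batch 2 alone. In the POA (1 called), it was 0 without a covariate, with the replicate block and in batch 1 or 2 alone, and 2 (*9630013A20Rik* and *Gpr17*) with batch in place of SV1, with SV1 and batch, with SV1 and the subtracted component, and at an adjusted *P* under 0.1. With single libraries left out it ran from 1 to 2 in the POA (2 without POA 14-day replicate 6). For 4 months against 14 days in the PH (0 called), it was 1 at an adjusted *P* under 0.1, and ran from 0 to 1 with single libraries left out (1 without PH 14-day replicate 3 or 4-month replicate 2). In the POA (1 called), it was 0 without a covariate and in batch 1 or 2 alone, 2 with SV1 and the subtracted component, and ran from 0 to 1 with single libraries left out (0 without 14-day replicate 2, 3, 4 or 5, or without 4-month replicate 1, 5 or 6). Fits of a single batch hold fewer libraries, and for the others the cause was not tested. Among values of single members and their correlations, 28 of 2513 were counted as moved. These were differences that shifted by more than the residual spread and the 3 PH correlations of *Gpr17*, *Neu4* and *Fyn*. The correlations left out replicate 5 at 14 days, a setting chosen after seeing the data, and were counted without a threshold. A difference not counted as moved could still lose its call, as *9630013A20Rik* did in the PH with batch in place of SV1 (limma adjusted *P* = 0.0742). No called difference changed its sign. No label ties a replicate number to a mouse, and not every same-numbered pair of a region correlated above 0.1. Of 30 such pairs, which ran from −0.31 to 0.41, 23 did. The 26 pairs that shared a batch held all 23, and the 4 from different batches lay between −0.31 and −0.05. All 30 pairs join libraries of different groups, which are different mice by the study's methods, so they could not show that a number is 1 mouse. Of 16 same-numbered pairs of PH and POA within a group, 14 correlated above 0.1, and the 16 ran from −0.34 to 0.47. The numbers were not used as pairs in the main fits, since no label ties them to a mouse. Among all libraries, 11 of 33 correlated best with their own number. The replicate block of a region joins same-numbered libraries of different groups, so it does not model repeats of 1 mouse. With this block, *9630013A20Rik* at 4 months had an adjusted *P* of 0.0367 in the PH and 0.0649 in the POA (limma), at log2 differences of −1.23 and −1.10.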
